A study of Rattus norvegicus with 12 samples.

Results

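The genes described here are the feedback and arrest targets of the transcription factor p53 in rat kidney: Mdm2, Mdm4, Ccng1, Phlda3, Rrm2b, Sesn1, Btg2, Gadd45a and Zmat3. They were chosen by name, with earlier results of these data known. Every probe outside the controls whose accession maps to one of these symbols was taken. This gave 12 probes for 8 of the 9 genes, of 61537 probes and 15645 named genes on the array. Sesn1 is not analysed here. All 12 probes passed the filter on dim spots, which asked for signal well above background on every array of some group, and were tested among 43900 probes in all. For each of them this held on all water and all cisplatin arrays, apart from the second Zmat3 probe.

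Male Sprague-Dawley rats, bought at an age of 5 weeks, gave renal cortex whose total RNA was measured on 12 arrays, 1 per animal. In the first experiment, 3 rats received water and 3 received cisplatin, the DNA cross-linking platinum compound, by gavage at 3.75 mg/kg/day for 4 weeks. In the second, 3 rats received water and 3 received cisplatin by intravenous injection at 0.75 mg/kg/day for 4 weeks. The intravenous dose is that of the sample labels, whereas the protocol text shared by all samples gives 3.75 mg/kg/day. Route, dose and experiment changed together and cannot be told apart.

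DNA damage stabilises p53, which then switches on genes that hold the cell cycle, repair DNA, tune growth signals or start cell death. Some targets act back on p53: Mdm2 is the ubiquitin ligase that marks p53 for degradation, its relative Mdm4 binds p53 and blocks its activation domain, and cyclin G1 (Ccng1) brings a phosphatase to Mdm2. Others slow growth, such as Btg2, Gadd45a and the AKT-restraining Phlda3. In the kidney, cisplatin is taken up by proximal tubule cells, which are its main site of injury.

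The 250 bases before the transcription start, from RefSeq on GRCr8, are shown for 4 genes that rose in both experiments and for Gadd45a, which passed the test in neither, because p53 binds its targets at sites in or near their promoters. The p53 half-site, a motif of 10 bases that reads the same on both strands, was searched without mismatch. The p53 full site, made of 2 adjacent half-sites, was searched with up to 2 mismatches outside the fixed C and G of each half-site, an allowance set after the Ccng1 sequence had been seen. Capitals mark a match, and all sequences run 5′ to 3′ towards the start.
Ccng1: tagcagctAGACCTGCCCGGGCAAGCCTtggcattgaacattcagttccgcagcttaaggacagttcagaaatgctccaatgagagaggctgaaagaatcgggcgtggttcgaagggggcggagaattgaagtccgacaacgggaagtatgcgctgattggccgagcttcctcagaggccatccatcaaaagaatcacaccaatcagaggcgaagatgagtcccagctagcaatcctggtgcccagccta
Mdm2: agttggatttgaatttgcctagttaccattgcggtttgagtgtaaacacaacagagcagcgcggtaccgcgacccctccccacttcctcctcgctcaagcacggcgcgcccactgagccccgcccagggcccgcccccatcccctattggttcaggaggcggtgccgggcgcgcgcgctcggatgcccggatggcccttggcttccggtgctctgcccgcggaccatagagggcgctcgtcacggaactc
Phlda3: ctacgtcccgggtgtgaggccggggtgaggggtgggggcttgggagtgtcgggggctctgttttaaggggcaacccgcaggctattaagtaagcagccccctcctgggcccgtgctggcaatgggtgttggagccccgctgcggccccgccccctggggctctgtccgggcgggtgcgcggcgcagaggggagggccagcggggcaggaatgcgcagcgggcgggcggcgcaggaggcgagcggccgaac
Btg2: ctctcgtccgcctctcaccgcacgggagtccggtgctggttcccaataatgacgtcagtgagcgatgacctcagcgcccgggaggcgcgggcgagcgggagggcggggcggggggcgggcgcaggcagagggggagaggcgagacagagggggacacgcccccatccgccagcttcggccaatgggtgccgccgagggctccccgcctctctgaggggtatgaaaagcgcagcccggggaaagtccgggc
Gadd45a: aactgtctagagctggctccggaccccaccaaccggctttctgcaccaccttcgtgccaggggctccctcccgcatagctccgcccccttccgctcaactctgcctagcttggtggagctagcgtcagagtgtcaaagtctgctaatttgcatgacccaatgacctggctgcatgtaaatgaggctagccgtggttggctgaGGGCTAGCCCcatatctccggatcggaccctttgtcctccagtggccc
These stretches are chr10:25684877-25685126 (minus strand) for Ccng1, chr7:55200792-55201041 (minus) for Mdm2, chr13:49744753-49745002 (plus) for Phlda3, chr13:48087691-48087940 (minus) for Btg2 and chr4:97486800-97487049 (minus) for Gadd45a. The Ccng1 match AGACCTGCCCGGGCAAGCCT is a full site with 1 mismatch that begins 242 bases before the start and contains the half-site GGGCAAGCCT. The Gadd45a match GGGCTAGCCC is a half-site 48 bases before the start.

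Promoter windows of 300 bases, of which 50 lie after the start, were given for 7 of the 9 genes. Rrm2b and Zmat3 were named only. A half-site occurred in 3 of the 7 windows (Ccng1, Gadd45a and Sesn1), against 7.89% of the 27457 promoters of the table. A full site occurred in 1 of the 7, that of Ccng1, against 0.342% of all promoters and 0.321% of those of the genes tested. Since the mismatch allowance was set after the Ccng1 sequence had been seen, this comparison adds no support. A match is a description of letters, and the absence of one in the windows of Mdm2, Mdm4, Phlda3 and Btg2 says only that these letters are not in those windows.

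The arrays were alike within groups, with correlations across probes of 0.981 to 0.993. Signals were brighter after cisplatin: the 75th percentile was 969.68 to 1054.8 on the 6 water arrays and 1387.4 to 1532.2 on the 6 cisplatin arrays, and each array was scaled to its own. On slide 1, gavage cisplatin replicate 1 lay with all 3 arrays of gavage water. Its replicates 2 and 3 shared slide 2 with intravenous water, and slide 3 carried intravenous cisplatin alone. The slide and the intravenous effect therefore cannot be told apart. With the slide as a block the gavage effect rests on slide 1, where the single cisplatin array is assumed to vary like the others. In whole tissue, fewer cells of a type and less RNA per cell cannot be told apart. Markers of other cells moved with treatment: 10 of 10 proximal tubule markers fell after gavage and 9 of 10 after injection, and their summed level, in units of the 75th percentile, went from 1398 to 1552 down to 122 to 228 by gavage and from 1270 to 1438 down to 197 to 526 by injection. Of the fibroblast markers tested, 7 of 7 rose after gavage and 6 of 7 after injection, and of the proliferation markers 6 of 7 and 7 of 7. The summed fibroblast level was 24.4 to 34.2 and 23.1 to 32.4 on water and 102 to 145 and 68.9 to 127 on cisplatin, by gavage and by injection. The summed proliferation level was 5.86 to 7.92 and 6.50 to 9.14 on water and 19.3 to 22.7 and 15.9 to 30.5 on cisplatin. Of the other lists, 5 of 6 distal nephron markers fell in both experiments, 4 and 3 of 5 podocyte and 3 and 2 of 6 endothelial markers fell, 8 and 5 of 10 macrophage markers rose, 1 macrophage marker fell after gavage, and 0 and 4 of 8 lymphocyte markers rose. As a background to these counts, 30.3% of all named genes rose and 32.7% fell after gavage, and 29.8% and 31.7% after injection. The endothelial count after injection lies near that share. Lum and Postn among the fibroblast markers and Cd163 among the macrophage markers were not well above background on any water array, while no proximal tubule marker was that dim in any group. Lum and Cd163 are counted as rises though they passed the filter on dim spots only through the cisplatin groups. P-values rest on 1 spread per probe, shared by the 4 groups of 3 animals and informed by all probes tested. The part of these shifts in the results below was not tested.

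The gavage comparison addressed which transcripts differ in the cortex after cisplatin by mouth. In it, 5 of the 8 genes rose (Mdm2, Ccng1, Phlda3, Btg2 and Zmat3), 1 fell (Rrm2b) and 2 did not pass (Mdm4 and Gadd45a). By probe, 9 of 12 were called higher and 1 lower, where called means an adjusted p under 0.05 in limma. Of all probes tested, 29.6% were called higher and 29.9% lower, and of all named genes by 1 probe each, 30.3% and 32.7%. The median change of the 8 genes was 2.51 on the log2 scale, beside -0.03 over all named genes. The intravenous comparison addressed the same question for injected cisplatin, and there 6 genes rose (the same 5 and Mdm4), 0 fell and 2 did not pass (Rrm2b and Gadd45a). By probe, 10 were called higher and 0 lower (9 and 0 of 11 without the second Zmat3 probe, and 8 and 1 of 11 after gavage), where 27.6% of all probes were called higher and 30.6% lower. By gene the background was 29.8% and 31.7%. The median change was 2.14, beside -0.01 over all named genes. After gavage the cisplatin arrays of 9 probes all lay above the water arrays and those of 1 all below, against 33.4% and 33.8% of all probes, and after injection those of 10 and 0, against 31.1% and 34.7%. Both the 9 and the 10 include the second Zmat3 probe, which passed the filter only through the cisplatin groups and adds no support. A rise of more than 3 on the log2 scale was called for 7 of the 12 probes after gavage and 5 after injection, against 1.95% and 1.29% of all probes. Because the members were chosen with earlier results of these data known, these counts and medians describe them. They do not test whether p53 targets rose more often than other genes.

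**Figure D1:**
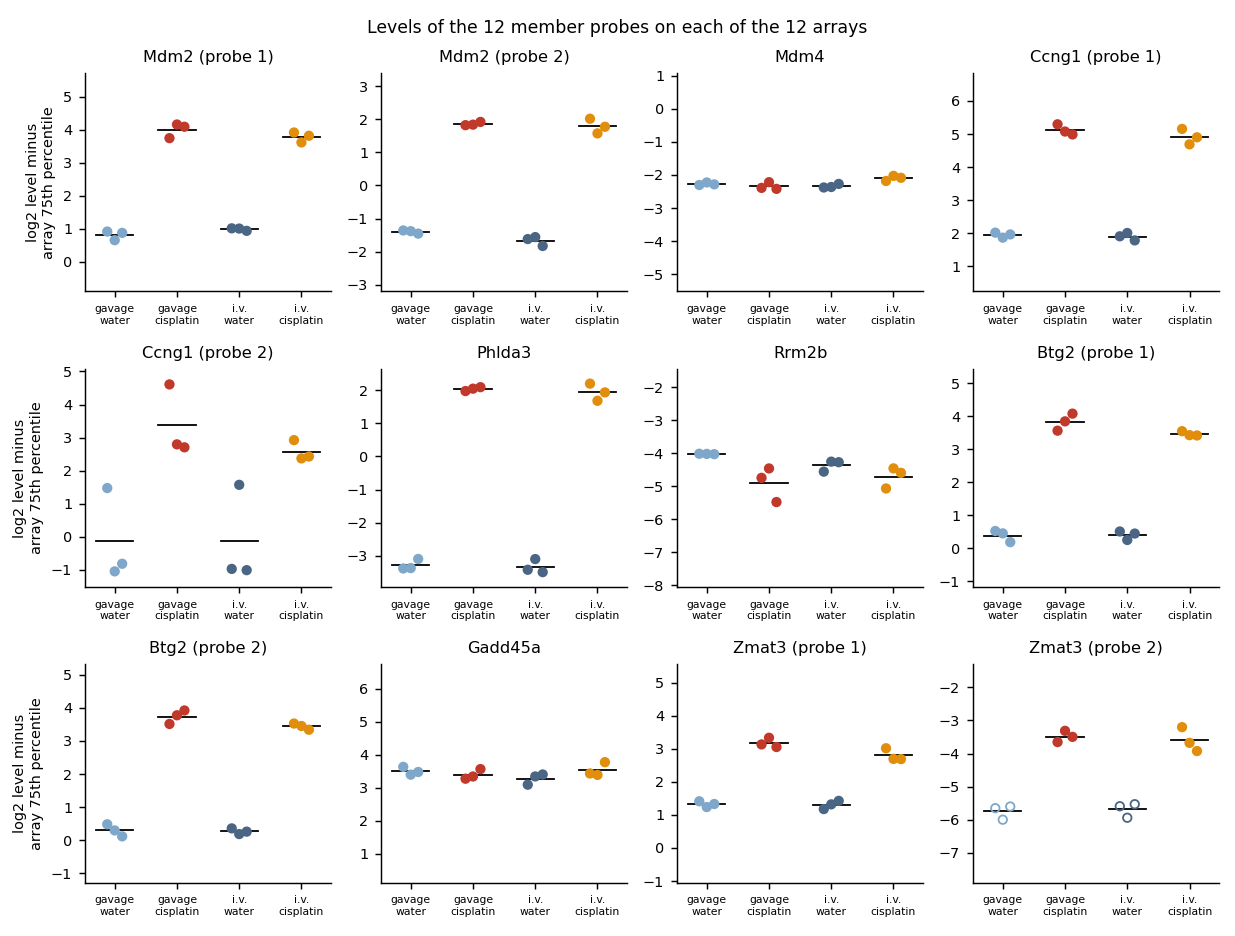
Level of each of the 12 member probes on each array, as log2 intensity minus the array's 75th percentile (y axis, 6.6 log2 units high in every panel), in the 4 groups of 3 animals (x axis). Points are animals, the black line is the group mean, and open points are spots not well above background. Mdm2, Ccng1, Phlda3, Btg2 and Zmat3 sit higher in both cisplatin groups, Mdm4 and Gadd45a stay within narrow bands, and the second Ccng1 probe shows 3 high arrays.

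Among the regulators that bind p53, Mdm2 rose in both experiments and Mdm4 in the intravenous one alone, and that difference was not called. Levels below are log2 intensity minus the array's 75th percentile, replicates 1, 2 and 3 in order, and changes are cisplatin minus water on the same log2 scale with their standard errors. The first Mdm2 probe (A_44_P634946) stood at 0.92, 0.65 and 0.88 in gavage water and at 3.74, 4.15 and 4.09 in gavage cisplatin. After the intravenous courses it stood at 1.01, 1.01 and 0.94 in water and at 3.91, 3.61 and 3.81 in cisplatin. All 6 cisplatin arrays thus lay above all 6 water arrays, and the ranges of both cisplatin groups overlapped. Mdm2 rose 9.05-fold after gavage (3.18 ± 0.13, n = 3 and 3, limma adjusted p = 1.17e-07) and 6.93-fold after injection (2.79 ± 0.13, limma adjusted p = 3.73e-07). The second Mdm2 probe (A_43_P16885) gave changes of 3.26 ± 0.12 and 3.46 ± 0.12, so the probes agreed in direction and call.

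Mdm4 moved little. Its probe stood at -2.30, -2.23 and -2.28 in gavage water and at -2.39, -2.22 and -2.42 in gavage cisplatin, and these groups overlapped. It stood at -2.38, -2.36 and -2.27 in intravenous water and at -2.18, -2.03 and -2.09 in intravenous cisplatin, where every cisplatin array was above every water array. The gavage change was -0.07 ± 0.08 and did not pass (limma adjusted p = 0.477), with a 95% interval of -0.25 to 0.11. The intravenous change was 0.24 ± 0.08 and passed (limma adjusted p = 0.0291), a 1.18-fold rise. The call was lost with quantile scaling (0.20, limma adjusted p = 0.0577), with no filter on dim probes (adjusted p = 0.0574), with only the 6 arrays compared (adjusted p = 0.0639) and, after leaving out 1 of intravenous water replicates 1 or 2 or intravenous cisplatin replicates 2 or 3, at 0.20 to 0.23. With the replicate number as a block its adjusted p was 0.0660. Scaled on spike-in probes, under which the median of all probes stands at 0.661 after gavage, the gavage change turned to 0.58 (limma adjusted p = 0.00334), below that median.

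Ccng1 was carried by 2 probes that disagreed in spread. The first probe (A_44_P235919) stood at 2.02, 1.87 and 1.96 in gavage water and at 5.29, 5.08 and 4.99 in gavage cisplatin. With the intravenous route it stood at 1.91, 2.01 and 1.78 in water and at 5.15, 4.69 and 4.90 in cisplatin. The groups did not overlap in either experiment, and the 2 water groups overlapped each other. Ccng1 rose by 3.17 ± 0.13 after gavage (limma adjusted p = 1.32e-07) and by 3.02 ± 0.13, or 8.08-fold, after injection (limma adjusted p = 2.38e-07).

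The second Ccng1 probe (A_44_P367761) stood at 1.47, -1.05 and -0.81 in gavage water and at 4.61, 2.80 and 2.71 in gavage cisplatin. Its intravenous levels were -0.97, 1.57 and -1.01 in water and at 2.92, 2.37 and 2.43 in cisplatin. On 3 arrays, gavage water 1, gavage cisplatin 1 and intravenous water 2, it was far above the other 2 arrays of the group, and the first probe on the same arrays was not. The difference of the second from the first probe, less its median over the 12 arrays, was 1.61 to 1.86 on those 3 arrays and -0.61 to 0.07 on the other 9. The whole span of that difference was 2.48 for Ccng1, 0.88 for Mdm2, 0.22 for Btg2 and 1.04 for Zmat3. The changes at the second probe were 3.50 ± 0.84 (limma adjusted p = 0.00480) and 2.71 ± 0.84 (limma adjusted p = 0.0188), with standard errors well above the 0.13 of the first. The gavage change was 4.30 without gavage water replicate 1, 2.88 without gavage cisplatin replicate 1 and 4.74 when blocked by slide, and it passed each time. The intravenous call was lost without intravenous water replicate 1 (2.29, adjusted p = 0.0681), without intravenous water replicate 3 (2.27, adjusted p = 0.0678) and without intravenous cisplatin replicate 1 (2.54, adjusted p = 0.0556), and the change was 3.56 without intravenous water replicate 2. The first probe kept both calls under every alternative run, and the cause of the high arrays was not tested.

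**Figure D2:**
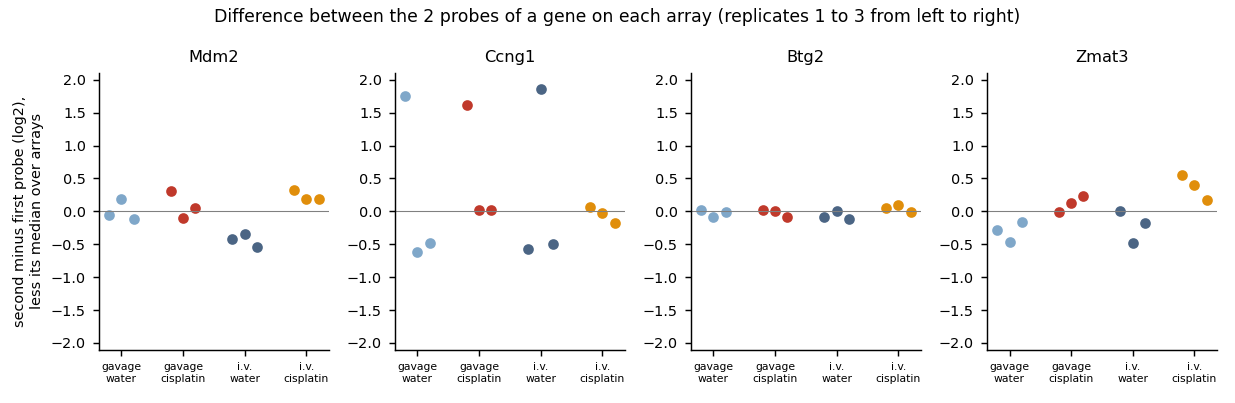
Difference between the 2 probes of each gene that has 2 on the array, second minus first in log2 units less its median over the 12 arrays (y axis), by group (x axis), with replicates 1 to 3 from left to right in each group. For Ccng1, gavage water 1, gavage cisplatin 1 and intravenous water 2 stand at 1.61 to 1.86, apart from the other 9 arrays, and Btg2 stays within a span of 0.22.

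Phlda3, a small lipid-binding protein that competes with AKT for the membrane, had the largest change of the members in both experiments. It stood at -3.39, -3.38 and -3.10 in gavage water and at 1.98, 2.05 and 2.09 in gavage cisplatin. By injection it stood at -3.43, -3.10 and -3.50 in water and at 2.20, 1.68 and 1.94 in cisplatin. Every cisplatin array was far above every water array, and the cisplatin groups overlapped each other. Phlda3 rose 40.2-fold after gavage (5.33 ± 0.15, limma adjusted p = 1.47e-08) and 39.0-fold after injection (5.28 ± 0.15, limma adjusted p = 2.09e-08). With normexp correction its changes were 4.58 and 4.64. Of all probes, 0.244% and 0.134% rose as much or more.

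Btg2, an antiproliferative protein that binds the CCR4-NOT deadenylase, was measured by 2 probes that gave nearly the same profile. The first (A_44_P398142) stood at 0.52, 0.45 and 0.19 in gavage water and at 3.56, 3.84 and 4.07 in gavage cisplatin. In the injected rats it stood at 0.51, 0.25 and 0.45 in water and at 3.54, 3.42 and 3.41 in cisplatin. The water groups overlapped, and each cisplatin group lay wholly above them. Btg2 rose 10.8-fold after gavage (3.44 ± 0.14, limma adjusted p = 1.35e-07) and 8.32-fold after injection (3.06 ± 0.14, limma adjusted p = 3.93e-07). The second probe (A_64_P009803) gave 3.44 ± 0.13 and 3.17 ± 0.13.

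Gadd45a, which binds PCNA and cyclin-dependent kinases after stress, passed in neither experiment. It stood at 3.63, 3.39 and 3.48 in gavage water and at 3.27, 3.34 and 3.56 in gavage cisplatin. Its levels in the intravenous experiment were 3.09, 3.34 and 3.40 in water and at 3.43, 3.39 and 3.77 in cisplatin. The groups overlapped in both. The change was -0.11 ± 0.13 after gavage (limma adjusted p = 0.508, 95% interval -0.41 to 0.19) and 0.25 ± 0.13 after injection (limma adjusted p = 0.130, interval -0.05 to 0.55). With spike-in scaling it turned to 0.55 after gavage (limma adjusted p = 0.0134) and was 0.82 after injection (adjusted p = 0.00158), beside medians of all probes of 0.661 and 0.534. With normexp background correction the gavage change was 0.0079. With quantile scaling the intravenous change also passed (0.43, limma adjusted p = 0.0268).

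Rrm2b, the p53-induced small subunit of ribonucleotide reductase that supplies deoxynucleotides for repair, was the one member that fell. Its probe was dim, though well above background on every array. Before scaling its intensities were 59.9, 62.8 and 61.6 in gavage water and 53.7, 69.6 and 32.6 in gavage cisplatin, which overlapped. The groups no longer overlapped once each array was scaled to its own 75th percentile, which was higher on the cisplatin arrays. On that scale the probe stood at -4.02, -4.02 and -4.03 in gavage water and at -4.75, -4.46 and -5.48 in gavage cisplatin. The intravenous levels were -4.56, -4.26 and -4.27 in water and at -5.07, -4.46 and -4.59 in cisplatin, with overlap. The gavage change was -0.87 ± 0.24 (limma adjusted p = 0.00959), a 1.83-fold fall. The intravenous change was -0.34 ± 0.24 and did not pass (limma adjusted p = 0.237), with an interval of -0.88 to 0.19. Without gavage cisplatin replicate 3, the lowest array, the gavage change was -0.58 and still passed (limma adjusted p = 0.0224). Blocking on slide ended the call (-0.72, adjusted p = 0.122), and so did spike-in scaling (-0.22, adjusted p = 0.486), under which the intravenous change was 0.22. Normexp correction made the intravenous fall pass (-0.32, limma adjusted p = 0.0385).

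Zmat3, a zinc finger protein that binds RNA, rose in both experiments. Its first probe (A_44_P1019245) stood at 1.41, 1.24 and 1.33 in gavage water and at 3.13, 3.33 and 3.05 in gavage cisplatin. Among the injected rats the levels were 1.18, 1.32 and 1.42 in water and at 3.02, 2.69 and 2.69 in cisplatin. The groups did not overlap in either. It rose 3.60-fold after gavage (1.85 ± 0.12, limma adjusted p = 1.66e-06) and 2.81-fold after injection (1.49 ± 0.12, limma adjusted p = 9.25e-06). The second probe (A_64_P115928) was not well above background on any water array, and there Zmat3 was at least 4.39-fold higher after gavage (limma adjusted p = 7.80e-06) and at least 3.80-fold higher after injection (limma adjusted p = 2.21e-05). It passed the filter only through the cisplatin groups, where it is high, so its calls add no support to the rise. Its fitted changes of 2.26 and 2.09 became 0.65 and 0.58 with normexp correction, below the bounds.

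**Figure D3:**
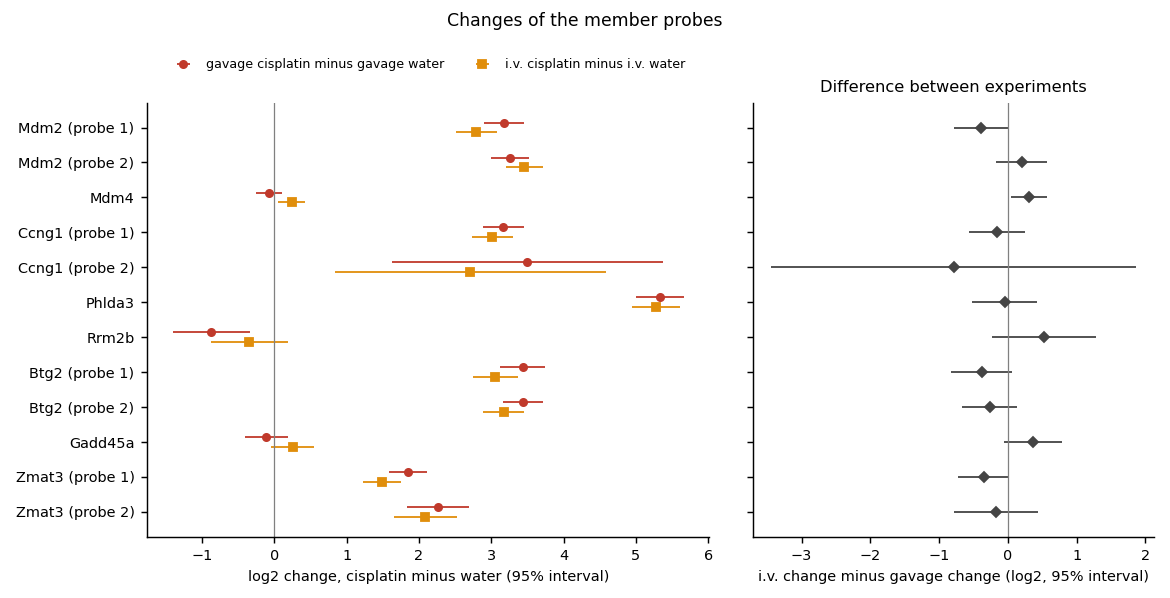
Change of each member probe, cisplatin minus water in log2 units with its 95% interval (left, gavage circles and intravenous squares), and the intravenous change minus the gavage change (right). Phlda3 stands at 5.33 and 5.28, Rrm2b lies below 0, and the second Ccng1 probe has the widest intervals.

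The difference between the experiments was tested directly, as the intravenous change minus the gavage change. It passed for 0 of the 12 probes in limma, and 1 had an unadjusted p under 0.05, that of Mdm4 (0.31 ± 0.12, limma adjusted p = 0.189). Of all probes, 0.169% were called higher and 0.647% lower in this comparison, and 8455 of the 43900 had an unadjusted limma p under 0.05. The single member probe at that threshold is therefore not read as a difference between the experiments. The estimate was below 0 for 8 probes and above 0 for 4. For the largest change, Phlda3, it was -0.05 with a 95% interval of -0.52 to 0.43. For the first Mdm2 probe it was -0.39 with an interval of -0.78 to 0.01, and for the second 0.20 with an interval of -0.17 to 0.57. For the first Ccng1 probe it was -0.15 (-0.56 to 0.25), for the first Btg2 probe -0.38 (-0.82 to 0.06) and for the first Zmat3 probe -0.35 (-0.73 to 0.02). For Rrm2b the interval ran from -0.22 to 1.28 and for the second Ccng1 probe from -3.44 to 1.87. These intervals show what difference each probe could still hold, and a p that misses the threshold does not show equal changes.

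Intravenous water minus gavage water gave 0 calls in limma among the 12 probes, as among all 43900, with changes from -0.34 (Rrm2b) to 0.17 (first Mdm2 probe). For 1 member probe the unadjusted p was under 0.05, that of the second Mdm2 probe (-0.27 ± 0.12, limma adjusted p = 0.339), and for 6094 of all probes. For both Mdm2 probes and for Rrm2b the water groups did not overlap. The first Mdm2 probe was higher in intravenous water, and the second Mdm2 probe and Rrm2b were lower. The share of all probes whose water groups do not overlap was not counted, so no difference between the water groups is read from these probes. For the 5 genes that rose, both water groups lay below both cisplatin groups.

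**Figure D4:**
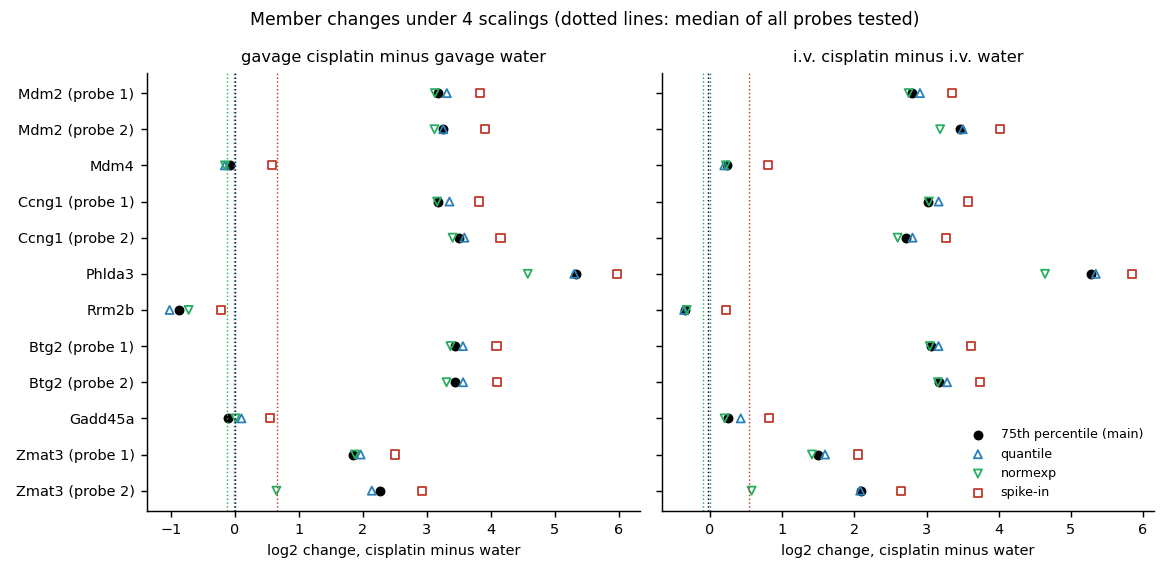
Change of each member probe under 4 scalings of the arrays, in log2 units, after gavage (left) and injection (right), with dotted lines at the median of all probes tested under each. Spike-in scaling moves every probe up together with the median, which then stands at 0.661 and 0.534, and carries Mdm4 and Gadd45a from below 0 to above 0 after gavage, and normexp correction lowers Phlda3 and the second Zmat3 probe.

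The profiles of Mdm2, Ccng1 and Btg2 were close to each other, and that of Phlda3, which had the largest change, lay apart. Likeness was measured as the root mean square difference of log2 levels over the 12 arrays, each probe centred on its own mean, across 12610 named genes. The size of a change was not scaled out, so profiles of like shape but unlike size lie apart, and flat ones lie close. The differences were 0.187 between Mdm2 and Ccng1, 0.206 between Mdm2 and Btg2 and 0.240 between Ccng1 and Btg2. Phlda3 was 1.06 from Btg2, its nearest member, and Mdm4 and Gadd45a were 0.166 apart. The named genes nearest to Mdm2 were A3galt2 (0.177) and Ccng1 (0.187). Those nearest to Ccng1 were Cpt1c (0.158) and Ces2c (0.187), and those nearest to Btg2 were F2rl1 (0.164) and Rhbdl2 (0.169). Fgb (0.237) and Trpv6 (0.269) were nearest to Phlda3, and Nsmf (0.0856) and Fat1 (0.106) to Zmat3. Dclre1a (0.0683) and Mrps27 (0.0700) were nearest to Mdm4, Marchf7 (0.118) and Prx (0.118) to Gadd45a, and Padi2 (0.128) and Ndufaf1 (0.143) to Rrm2b.

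Other p53 targets were counted beside the members by 1 probe per gene. Of 11 death genes tested, 8 rose, 0 fell and 3 did not pass after gavage, with a median change of 1.26, and 9 rose, 0 fell and 2 did not pass after injection, with a median of 1.16. Of all named genes, 30.3% rose and 32.7% fell after gavage, and 29.8% and 31.7% after injection. Pmaip1 is counted among the 8 and the 9 but passed the filter only through the cisplatin groups, so it adds no support. The death receptor Fas rose by 4.21 ± 0.13 after gavage and 4.15 ± 0.13 after injection (limma adjusted p = 2.40e-08 and 2.79e-08). Bbc3, a BH3-only activator of cell death, rose by 3.65 ± 0.14 and 3.39 ± 0.14. The pore-forming Bax rose by 1.26 ± 0.09 and 1.16 ± 0.09, and Tp53inp1, a stress-induced nuclear protein, by 2.26 ± 0.14 and 2.41 ± 0.14. Pmaip1, another BH3-only gene, was not well above background in either water group and was at least 2.09-fold and 2.03-fold higher, whereas with normexp correction its changes were 0.32 and 0.53 on the log2 scale, below those bounds. Bid (-0.31 and -0.05) and Perp (0.10 and 0.29) passed in neither experiment, and Ei24 passed after injection (0.41 ± 0.10). The second Perp probe passed in both (0.52 and 0.52).

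Of 16 targets in arrest, repair and metabolism tested, 7 rose, 2 fell and 7 did not pass after gavage (median 0.36), and 8 rose, 2 fell and 6 did not pass after injection (median 0.40). Among all named genes 30.3% rose and 32.7% fell after gavage, and 29.8% and 31.7% after injection. Gtse1 is counted among the 7 and the 8 but passed the filter only through the cisplatin groups, so it adds no support. The stress cytokine Gdf15 rose by 4.88 ± 0.27 and 4.42 ± 0.27, and the kinase Plk2 by 4.20 ± 0.25 and 4.68 ± 0.25 (limma adjusted p = 1.18e-06 and 9.46e-07), or 3.46 and 3.87 with normexp correction. Gtse1, a microtubule-associated protein of the G2 phase, was not well above background on any gavage water array and on 1 of 3 intravenous water arrays. With the 75th percentile scaling it was at least 31.3-fold higher after gavage, and the fitted change after injection, 4.70 ± 0.31, rests on those dim spots. With normexp correction the changes were 2.93 and 2.63, below that bound. Tigar, a regulator of glycolysis, rose by 1.23 ± 0.11 and 0.90 ± 0.11. Triap1 fell in both (-0.58 ± 0.08 and -0.70 ± 0.08), and the repair gene Xpc fell after gavage (-0.51 ± 0.09). With spike-in scaling neither fall of Triap1 (0.07 and -0.13) passed, nor did that of Xpc (0.14). Cdkn1a, the cyclin-dependent kinase inhibitor p21, had 3 probes that disagreed: the one of highest mean (A_64_P123895) changed by -0.19 ± 0.08 and -0.59 ± 0.08, of which the second passed, and with spike-in scaling these were 0.46 and -0.03. The other Cdkn1a probes rose by 6.06 ± 0.14 and 5.59 ± 0.17 after gavage and by 5.87 ± 0.14 and 5.49 ± 0.17 after injection. The count of 2 falls after injection rests on that probe and on Triap1.

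Of 12 regulators of p53 tested, 3 rose, 5 fell and 4 did not pass after gavage (median -0.06), and 3 rose, 4 fell and 5 did not pass after injection (median -0.00394). These counts lie near the shares of all named genes, 30.3% higher and 32.7% lower after gavage and 29.8% and 31.7% after injection. The checkpoint kinase Chek1 rose by 2.20 ± 0.19 and 1.98 ± 0.19, and by 1.09 and 0.98 with normexp correction. The ribosomal proteins Rpl11 (0.58 and 0.63) and Rpl5 (0.46 and 0.32), which can bind Mdm2, also rose in both. The deubiquitinase Usp10 fell by 0.95 and 0.80 on the log2 scale, the kinase Hipk2 by 0.75 and 0.75, and the acetyltransferase Kat5 by 0.48 and 0.58 at its probe of highest mean, while the other 2 Kat5 probes passed in neither. With spike-in scaling Hipk2 (-0.10 and -0.18) and Kat5 (0.17 and -0.02) passed in neither experiment, nor did the intravenous fall of Usp10 (-0.23). The ubiquitin ligase Cop1 (-0.40) and the deubiquitinase Usp7 (-0.34) fell after gavage alone, and the ligase Rchy1 (-0.85) after injection alone, and none of these differences between experiments passed. The fall of Cop1 was lost with quantile scaling (-0.22, adjusted p = 0.0891). Cop1 (0.26) and Usp7 (0.31) turned upward with spike-in scaling, Rchy1 (-0.29) no longer passed, and both falls were lost with the slide as a block (-0.15 and -0.28).

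**Figure D5:**
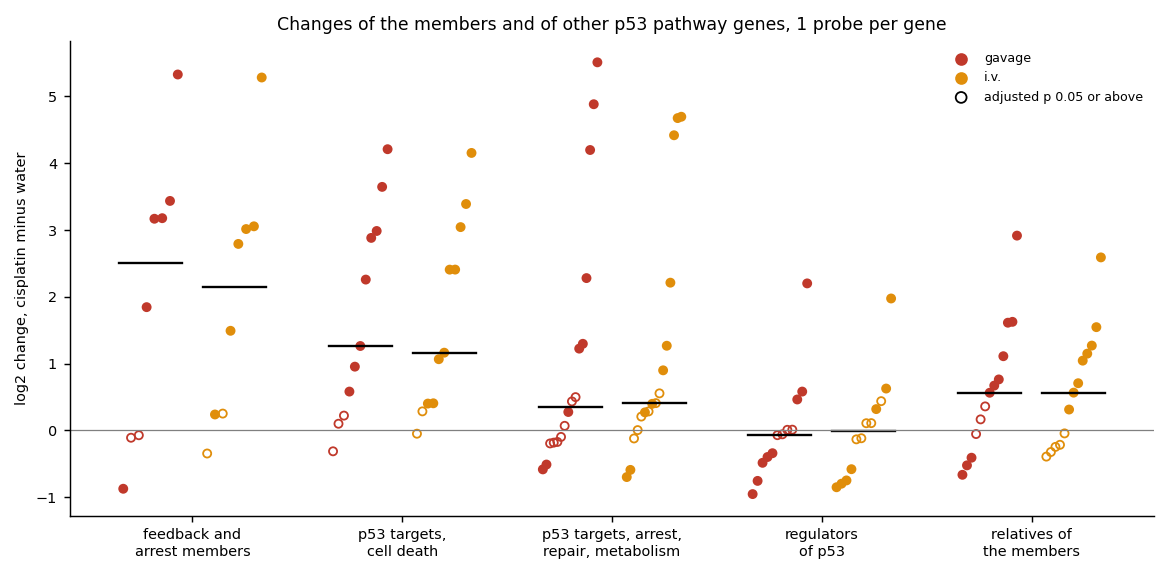
Change of each gene by 1 probe, cisplatin minus water in log2 units (y axis), for the members and 4 other gene lists (x axis), gavage on the left and intravenous on the right of each pair. Filled points passed the test, open points did not, and black lines are list medians, 2.51 and 2.14 for the members. The points of Gtse1 and Pmaip1 are fitted values against water spots mostly or wholly not well above background.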

How the data were processed

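Each of 12 animals gave 1 array (1-colour Agilent, Cy3). Per the submitters' processing notes the spots were read by Feature Extraction 10.7, and the version is 10.7.1.1 in the headers of the files. The intensity that the authors deposited had its background removed array by array, with no scaling between arrays, per the file headers. The deposited marks for spots well above background and uneven spots were used as well. The authors' deposited value table holds a linear ratio, the intensity over the array's 75th percentile. It was matched to the scanner values, with an SD of the log2 ratio between 0.00014 and 0.00196 for probes of an intensity of at least 100. Its column medians were 0.109 to 0.121, and why this scaling was chosen is not stated in the labels.

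For each array, log2 intensity minus the array's 75th percentile was taken, without 1439 control spots and 82 uneven spots. The filter kept a probe when every array of some group was well above background (43900 of 61537 probes). Using R 4.3.3 and limma 3.58.1, the 4 group means were fitted (residual degrees of freedom 8, prior 2.12) with a two-sided test and Benjamini-Hochberg adjustment over all 43900 probes. Calls needed an adjusted p below 0.05. The fit was tested on simulated data. A gene counted once is the probe of highest mean over the 12 arrays. Where the dimmer group had no array well above background, the fold is a lower bound: its mean was taken after raising each array's signal to at least the lowest signal of any probe well above background there. Probes were named through RefSeq accessions in a table of GRCr8, used for names only. The array design refers to rn4 and no probe positions are given. Of the probes, 28206 matched 1 symbol, 33331 none and 0 several.

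The named genes are all members with all their probes, up to 4 genes of smallest p per other p53 list and experiment, any gene of a direction that 5 or fewer of a list share, Cdkn1a, and the 2 genes of nearest profile to each member. The members and the lists were chosen with earlier results of these data known. Other listed genes named for a disagreement between probes or as a lower bound were picked with their values in view. The alternatives were quantile, spike-in and normexp scaling, the authors' ratios, other filters on dim probes, 1 probe per gene, array weights, the slide or the replicate number as a block, only the 6 arrays compared, uneven spots kept, and leaving out each array. Normexp used the median spot intensity and was chosen after seeing the data. No pairing by replicate number was seen: the correlation of deviations was -0.105 to 0.057 at the same number and -0.0843 to 0.12 at unlike numbers. With 3 animals per group this cannot settle whether the design paired them. The number of arrays limits the precision.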

Additional observations from a re-analysis of the deposited data

How the results depend on the processing

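For the 7 probes of Mdm2, Ccng1 (first probe), Phlda3, Btg2 and Zmat3 (first probe), all 339 values under the alternatives run kept their direction and their call in both cisplatin comparisons. Many of these values could hardly differ from the main ones, so their number is no measure of robustness. Leaving out an array of the other experiment left a change as it was, and so did the replicate block. The authors' ratios nearly repeat the main values. With the slide as a block, 9 of 9 rising probes passed after gavage (1.81 to 5.27). The second Zmat3 probe is among these 9 and adds no support, since it passed the filter only through the cisplatin groups. The reversed results were Mdm4 (0.58) and Gadd45a (0.55) after gavage with spike-in scaling. Member probes called lower numbered 0 after gavage with spike-in scaling or the slide as a block, and 1 after injection with normexp. With 1 probe per gene, 5 and 6 members were called higher by construction. Over all probes, calls higher and lower were 27702 and 4332 after gavage and 24855 and 3926 after injection with spike-in scaling, which made 86.5% and 86.4% of calls higher (49.7% and 47.4% otherwise, 38.7% and 39.7% with normexp). The difference between experiments gave 74 and 284 calls, 0 and 0 with quantile scaling, spike-in scaling, no filter or the replicate block, 137 and 480 with probes bright on all 12 arrays, 1045 and 1733 with array weights, 177 and 598 with the slide as a random block, and 213 higher with normexp. The water groups gave 0 and 0 calls, 8 and 1 with normexp, 1 higher with probes bright on all 12 arrays, 1331 and 580 with array weights, 4 and 6 with the slide as a fixed block, and 842 and 155 with only their 6 arrays. Leaving out 1 array gave 0 to 1377 and 0 to 2193 for the difference and 0 to 1040 and 0 to 203 for the water groups, each with 0 members called. The calls were 766 and 2193 for the difference and 1040 and 203 for the water groups without gavage cisplatin replicate 1, and the cause was not tested. Leaving out 1 array gave 9 higher and 1 lower member calls after gavage, and 8 to 10 higher and 0 lower after injection. The replicate block, though no pairing by number was seen, ended 1 member call, Mdm4 after injection (0.24, limma adjusted p = 0.0660), and no other. Normexp on the mean spot signal was not run, since the files used hold the median only, and a fixed slide block could not be fitted for the intravenous effect or the difference. The number of arrays, 3 per group, limits what small changes such as those of Mdm4 and Gadd45a could show, and the second Zmat3 probe is limited by its background in water.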

Other observations

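Relatives of the members were counted by 1 probe per gene. Of 13 tested, 7 rose, 3 fell and 3 did not pass after gavage (median 0.56), and 8 rose, 0 fell and 5 did not pass after injection (median 0.57). Over all named genes 30.3% rose and 32.7% fell after gavage, and 29.8% and 31.7% after injection. Rrm2, the S-phase partner of the ribonucleotide reductase large subunit, rose by 2.92 ± 0.32 and 2.59 ± 0.32, and the large subunit Rrm1 by 0.56 ± 0.12 and 0.71 ± 0.12, beside the changes of -0.87 and -0.34 for Rrm2b. The relatives of Phlda3 also rose, Phlda2 by 1.63 ± 0.15 and 1.27 ± 0.15, and Phlda1 by 1.61 ± 0.17 and 1.55 ± 0.17. Btg3 rose by 1.11 ± 0.10 and 1.15 ± 0.10. Ccng2 (-0.52 ± 0.12), Tob2 (-0.66 ± 0.18) and Zmat2 (-0.41 ± 0.12) fell after gavage, and with spike-in scaling they changed by 0.13, -0.01 and 0.25 and did not pass. The falls of Tob2 (-0.55) and Zmat2 (-0.36) were lost with the slide as a block, and that of Zmat2 also without gavage water replicate 1 or gavage cisplatin replicate 3. The other Tob2 probes fell after gavage (-0.65 and -0.57) and after injection (-0.72 and -0.64). For Zmat2, another probe rose after gavage (0.33 ± 0.10). Other probes of the same gene also disagreed in their call after gavage for Chek2 (0.01 and 0.87), for Kat5 (-0.48, -0.02 and -0.08) and for Usp7 (-0.34, -0.14 and -0.10).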
